A study of Homo sapiens with 6 samples.

Results

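S100 genes encode small calcium-binding proteins built around a pair of EF-hands, the helix-loop-helix fold that holds a calcium ion. Most S100 proteins pair with themselves or with each other, open a hydrophobic surface when calcium binds, and then attach to target proteins such as annexins and myosins. Most human S100 genes lie in a cluster on the long arm of chromosome 1 next to the genes of the cornified envelope, and many are known for their expression in squamous epithelia and in carcinomas. Described here are the 10 S100 genes S100A2, S100A3, S100A4, S100A6, S100A10, S100A11, S100A13, S100A14, S100A16 and S100P, chosen by name among the 35544 loci of the deposited table. Each of the 10 had 1 row of its own, except that the row of S100A13 also carries 2 noncoding names, AL162258.1 and AL162258.2.

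The study asked which mRNAs lie downstream of the circular RNA hsa_circ_0005358 in SiHa, an established cell line from a human cervical squamous carcinoma. PolyA RNA was sequenced from 3 libraries of SiHa cells given a plasmid for hsa_circ_0005358 (called circ_0005358 below) and from 3 libraries of SiHa cells given the vector plasmid, with cells taken 72 h after transfection in both groups. The labels write the digits of the circular RNA in several ways, which were read as the same RNA, and they do not say whether each library had a culture of its own. The p-values therefore reflect differences among these 6 libraries, a spread that could be technical. Levels are the authors' FPKM, in which fragment numbers are divided by transcript length and by the size of the library, which allows levels to be set side by side between genes. The circular RNA itself has no polyA tail and was not analysed here.

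Estimated depths were 71.1% to 97.5% of the deepest library in the circ_0005358 group and 98.0% to 100% in the vector group, with circ_0005358 replicate 2 the shallowest. A gene was tested where at least 3 of the 6 libraries held 1 FPKM or more (called the filter below), and it changed where limma, a linear model fitted across all tested loci, gave an adjusted p under 0.05. Vector replicate 3 listed 27803 loci above 0, against 23227 to 23834 in the other 5 libraries. The epithelial markers fixed for the line (KRT7, KRT8, KRT17, KRT18, EPCAM and CDH1) were present in every library, with summed levels of 617 to 694 FPKM in circ_0005358 libraries and 1267 to 1336 FPKM in vector libraries. Of the markers of other cells, 3 of 5 for leukocytes, 4 of 5 for fibroblasts, 4 of 4 for endothelium and 4 of 4 for neural and glial cells stayed below 1 FPKM in all 6 libraries, PTPRC and PECAM1 among them. CD14 was the exception among single-gene leukocyte rows, with 1.33, 14.5 and 16.2 FPKM in circ_0005358 libraries and 13.2, 10.4 and 10.5 FPKM in vector libraries.

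The start regions of 3 members are shown because these genes stand for the patterns found. S100A14 was the member that changed, and S100A6 is abundant and did not overlap between the groups. S100A11, which had the highest mean of the members in both groups, overlapped. Each is 1 strand of 300 bases, from 250 bases before to 50 bases after the first base that RefSeq gives the gene, on GRCh38.p14. The GENCODE 29 spans given with each gene below cover all its annotated transcripts and begin farther upstream, by 661 bases for S100A14, 253 bases for S100A6 and 10903 bases for S100A11. Capitals mark matches, on either strand, to TGANTCA (the AP-1 motif), GGGCGG (the GC box), TATAAA (the TATA box) and CANNTG (the E-box).
S100A14 (chr1:153616276-153616575, minus strand): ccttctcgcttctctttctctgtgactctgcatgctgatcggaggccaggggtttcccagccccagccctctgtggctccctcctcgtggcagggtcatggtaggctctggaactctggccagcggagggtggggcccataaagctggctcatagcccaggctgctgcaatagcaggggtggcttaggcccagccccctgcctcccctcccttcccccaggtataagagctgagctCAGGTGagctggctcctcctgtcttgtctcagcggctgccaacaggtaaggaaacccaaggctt
S100A6 (chr1:153535942-153536241, minus strand): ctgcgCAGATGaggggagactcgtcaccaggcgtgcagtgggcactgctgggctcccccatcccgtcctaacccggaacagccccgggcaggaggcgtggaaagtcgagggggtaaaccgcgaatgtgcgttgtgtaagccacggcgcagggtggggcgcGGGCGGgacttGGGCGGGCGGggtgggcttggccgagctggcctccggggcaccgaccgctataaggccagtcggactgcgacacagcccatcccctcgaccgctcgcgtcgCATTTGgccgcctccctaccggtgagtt
S100A11 (chr1:152036955-152037254, minus strand): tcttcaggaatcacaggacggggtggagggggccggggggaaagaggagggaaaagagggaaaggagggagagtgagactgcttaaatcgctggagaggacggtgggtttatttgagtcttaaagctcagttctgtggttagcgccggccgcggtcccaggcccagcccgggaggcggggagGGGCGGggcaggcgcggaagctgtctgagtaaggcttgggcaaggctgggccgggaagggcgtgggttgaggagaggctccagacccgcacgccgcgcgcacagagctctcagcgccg
The S100A14 window held 1 match, an E-box that begins 14 bases before the RefSeq first base, and 5 CpG pairs. The S100A6 window held 3 GC boxes, the last pair of them overlapping, along with 2 E-boxes and 31 CpG pairs, and the S100A11 window held 1 GC box and 22 CpG pairs. Among all 35116 start windows of the reference, 45.0% held a GC box, 68.7% an E-box, 11.5% a TATA box and 7.71% an AP-1 motif. CpG pairs were not counted over all windows. In windows of tested members that did not change they ran from 3 in a window of S100A16 to 32 in that of S100A10, with 5 in that of S100P. A match to letters is not a bound site, and the table holds no measurement of binding.

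S100A14 fell about 10-fold in level and was the only member to pass the test. S100A14 is an epithelial S100 protein whose C-terminal EF-hand lacks residues that hold calcium. Its level was 0.290, 0.294 and 0.166 FPKM in circ_0005358 libraries, against 2.25, 3.35 and 2.19 FPKM in vector libraries. Every circ_0005358 library lay far below every vector library. The means were 0.250 ± 0.0728 FPKM with circ_0005358 and 2.60 ± 0.654 FPKM with vector (SD, n = 3 each), a ratio of 0.0961. The log2(FPKM + 1) values differed by -1.51 (standard error 0.141; limma, adjusted p = 0.00338). The difference was -2.94 with a pseudocount of 0.1, since a pseudocount of 1 understates the change of low genes. A two-sided exact permutation test could reach no less than p = 0.1 with 3 against 3 libraries, and gave that value. Removing both vector replicate 3 and circ_0005358 replicate 2 ended the call at an adjusted p of 0.0543 (limma), and over all alternatives the adjusted p ran from 0.00263 to 0.0543. The gene (ENSG00000189334) is annotated at 153614255 to 153616986 of chromosome 1, GRCh38, minus strand.

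Among the 8 members that passed the filter, 1 fell, 0 rose and 7 did not pass the test, where 11.4% of all 10295 tested loci changed, 4.96% falling and 6.41% rising (limma, adjusted p under 0.05). At an unadjusted p under 0.05 the numbers were 3 lower and 0 higher. A count of 1 in 8 lies near the share of the whole table. S100A14 reached the filter of 1 FPKM in 3 libraries through the vector libraries alone, so its being tested is not independent of its difference. On its transcripts 1 fragment was worth between 0.0357 and 0.141 FPKM, so its values with circ_0005358 rest on a few fragments per library. All 6 epithelial markers fell with S100A14, among them CDH1 at 0.958 FPKM in circ_0005358 libraries and 13.8 FPKM in vector libraries. The summed fibroblast markers were also lower, at 2.48 to 2.89 FPKM in circ_0005358 libraries and 7.02 to 10.4 FPKM in vector libraries, through LUM. The fibroblast markers did not move as a set. Below 1 FPKM, COL3A1 and DCN were higher in every circ_0005358 library than in any vector library. COL1A1 was lower in the same way, and COL1A2 overlapped. The part of the epithelial markers or of LUM in the S100A14 result was not tested. In bulk RNA fewer cells that express a gene and less RNA per cell cannot be told apart.

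**Figure D1:**
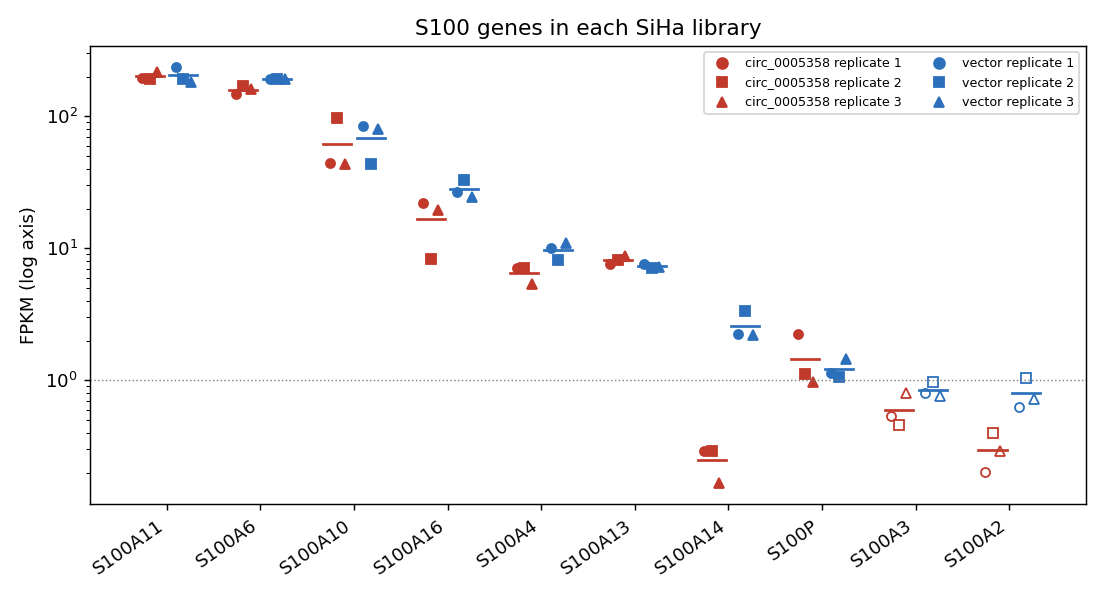
FPKM on a log axis for the 10 S100 genes, ordered by mean level in vector libraries, with circ_0005358 libraries in red on the left and vector libraries in blue on the right of each gene. Points are single libraries, bars are group means, open points are the genes below the filter and the dotted line marks 1 FPKM. S100A14 stands at 0.166 to 0.294 FPKM with circ_0005358 and at 2.19 to 3.35 FPKM with vector, while the points of S100A10 split within each group.

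The levels of the family spanned 2 to 3 orders of magnitude and were led by 3 genes. In circ_0005358 libraries S100A11 stood first with 44.0% of the summed FPKM of the 10 members, followed by S100A6 with 34.9% and S100A10 with 13.6%. In vector libraries S100A11 held 39.7%, S100A6 37.2% and S100A10 13.4%. In vector libraries S100A11 and S100A6 overlapped in range and did not differ beyond their spread, and in circ_0005358 libraries their ranges were apart, at 192 to 215 FPKM and 146 to 168 FPKM. S100A16, S100A13 and S100A4 followed at means of 16.6, 8.17 and 6.51 FPKM with circ_0005358, and the order with vector was S100A16, S100A4 and S100A13 at 27.9, 9.76 and 7.31 FPKM. The ranges of S100A16 and S100A13 overlapped with circ_0005358, and no neighbours among these 3 overlapped with vector. S100A14 was seventh of the 10 with vector and last with circ_0005358, where its range overlapped that of S100A2. The summed level of the 10 members was 455 ± 29.4 FPKM with circ_0005358 and 515 ± 43.3 FPKM with vector (SD, n = 3 each).

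S100A6, S100A4 and S100A16 did not pass the test, yet each was lower in all circ_0005358 libraries than in any vector library. Together with S100A14 this made 4 of 8 tested members without overlap on the lower side, where 15.9% of all tested loci lay that way, and 0 members on the higher side, where 19.8% of all loci did (35.8% in either direction). The median log2 fold change of the 8 members was -0.23, against 0.02 over all tested loci. Both figures include S100A14, which could be tested only because its vector level was high, and serve as description. S100A6 (ENSG00000197956, chromosome 1, 153534599 to 153536244), also called calcyclin, binds the ubiquitin ligase adaptor CACYBP and annexins. Its level was 146, 168 and 162 FPKM in circ_0005358 libraries, against 193, 190.1 and 191 FPKM in vector libraries. The vector libraries lay within 3 FPKM of each other, and the nearest circ_0005358 library was replicate 2. Its log2 fold change was -0.27, with -0.43 to -0.11 as the 95% interval (limma, adjusted p = 0.0564; exact permutation p = 0.1). S100A6 passed the threshold when libraries were rescaled to the same FPKM sum (adjusted p = 0.0338) and when limma weighted the libraries (adjusted p = 0.0425), and it reached 0.236 with no filter, the highest over its alternatives.

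S100A4 (ENSG00000196154, chromosome 1, 153543613 to 153550136) is known as a metastasis-associated protein that binds the heavy chain of non-muscle myosin IIA. Its level was 7.07, 7.11 and 5.35 FPKM in circ_0005358 libraries, against 10.1, 8.21 and 10.99 FPKM in vector libraries. The groups stood apart, with vector replicate 2 the closest to the circ_0005358 libraries. S100A4 had a log2 fold change of -0.52, with -0.88 to -0.15 as the 95% interval (limma, adjusted p = 0.0851; exact permutation p = 0.1). The annotated span of S100A4 on GRCh38 contains that of S100A3 on the same strand. Their protein-coding transcripts share 0 stretches of 75 bases.

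S100A16 (ENSG00000188643, chromosome 1, 153606886 to 153613145), a broadly expressed member that lies next to S100A14, had a coefficient of variation of 44.0% in circ_0005358 libraries, the highest among the 4 genes without overlap. Its level was 22.1, 8.33 and 19.4 FPKM in circ_0005358 libraries, against 26.9, 32.6 and 24.3 FPKM in vector libraries. Circ_0005358 replicate 2, the shallowest library, was far below the other circ_0005358 libraries, which came close to vector replicate 3. Over all libraries the log2 fold change was -0.81, with a 95% interval from -1.73 to 0.11 (limma, adjusted p = 0.228; exact permutation p = 0.1). Without circ_0005358 replicate 2 it was -0.40 (limma, adjusted p = 0.194, with 0.17 to 0.507 over all alternatives).

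**Figure D2:**
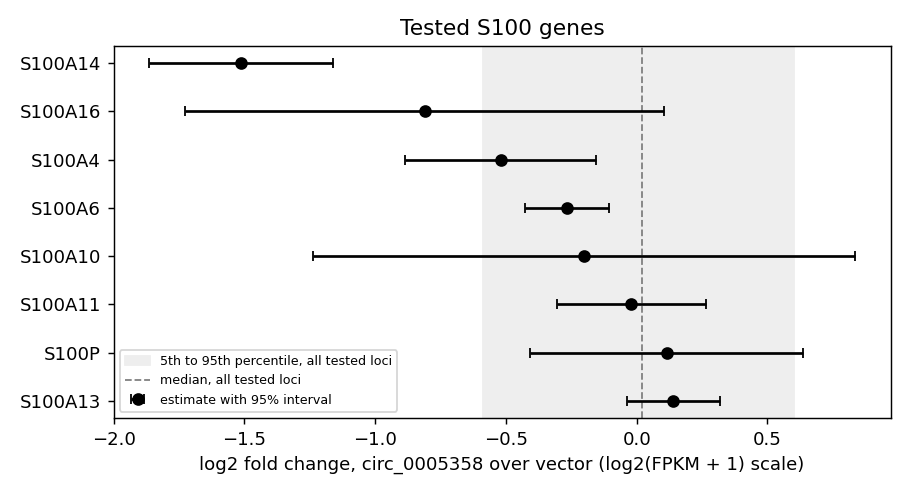
Log2 fold change of circ_0005358 over vector for the 8 tested S100 genes, on the log2(FPKM + 1) scale, with 95% intervals from limma. The grey band spans the 5th to 95th percentile of all tested loci and the dashed line their median of 0.02. S100A14 at -1.51 lies outside the band with its whole interval, S100A16 at -0.81 lies outside with an interval that reaches 0, and the other 6 lie within the band.

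S100A11, S100A10, S100A13 and S100P overlapped between the groups and did not pass the test. S100A11 (ENSG00000163191, chromosome 1, 152032506 to 152047907) binds annexin A1 and takes part in membrane repair. It had 194, 192 and 215 FPKM in circ_0005358 libraries, against 237, 192 and 183 FPKM in vector libraries. The vector libraries enclosed those with circ_0005358. A log2 fold change of -0.02 had a 95% interval from -0.30 to 0.27 (limma, adjusted p = 0.93). Its sign depended on which library was left out.

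S100A10 (ENSG00000197747, chromosome 1, 151982915 to 151994390) differs from its relatives in that it no longer needs calcium to bind, and it forms a tetramer with annexin A2 at the plasma membrane. Its level was 44.5, 97.7 and 43.2 FPKM in circ_0005358 libraries, against 83.9, 43.2 and 79.4 FPKM in vector libraries. The libraries stood at either a lower or a higher level, with circ_0005358 replicates 1 and 3 and vector replicate 2 at the lower, and nothing between 44.5 and 79.4 FPKM. The coefficient of variation was 50.3% with circ_0005358 and 32.5% with vector, the highest of the 10 members in either group. For S100A10 the log2 fold change was -0.20 with a 95% interval from -1.24 to 0.84 (limma, adjusted p = 0.799). It was -0.58 without circ_0005358 replicate 2 and -0.50 without vector replicate 2, and between -0.07 and 0 without any other single library. A change of 1.5-fold in either direction lies within that interval and was not detectable in these libraries.

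S100A13 (ENSG00000189171, chromosome 1, 153618787 to 153631360) is needed for the export of FGF1 and IL1A outside the classical secretory route. Its joined row had 7.58, 8.12 and 8.81 FPKM in circ_0005358 libraries, against 7.60, 7.07 and 7.26 FPKM in vector libraries. Circ_0005358 replicate 1 and vector replicate 1 were nearly equal, and the other circ_0005358 libraries lay above all vector libraries. The row's log2 fold change was 0.14 with a 95% interval from -0.04 to 0.32 (limma, adjusted p = 0.274), and it was 0.09 without circ_0005358 replicate 3. Of the 75-base stretches in its protein-coding transcripts, 40.3% also occur in AL162258.1, a name on the same row, while 0% of those of the other 9 members occur in another gene's transcripts. The row therefore cannot be read as S100A13 mRNA alone.

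S100P (ENSG00000163993, chromosome 4, 6693069 to 6697170, plus strand), first found in placenta and known to bind ezrin, is the only member that lies on chromosome 4. It had 2.25, 1.12 and 0.975 FPKM in circ_0005358 libraries, against 1.13, 1.06 and 1.45 FPKM in vector libraries. Circ_0005358 replicate 1 was the highest library and replicate 3 of the same group the lowest. S100P showed a log2 fold change of 0.11 with a 95% interval from -0.41 to 0.64 (limma, adjusted p = 0.771). It was -0.11 without circ_0005358 replicate 1.

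S100A2 and S100A3 lay below the filter and were tested only when no filter was applied. S100A2 (ENSG00000196754, chromosome 1, 153561108 to 153567890) is a nuclear S100 protein of keratinocytes. It had 0.202, 0.396 and 0.294 FPKM in circ_0005358 libraries, against 0.628, 1.04 and 0.722 FPKM in vector libraries. All circ_0005358 libraries were below all vector libraries (exact permutation p = 0.1), and with no filter its log2 fold change was -0.47 (limma, adjusted p = 0.216). S100A3 (ENSG00000188015, chromosome 1, 153547329 to 153549372), a cysteine-rich protein of the hair cuticle, had 0.536, 0.458 and 0.809 FPKM in circ_0005358 libraries, against 0.808, 0.968 and 0.764 FPKM in vector libraries. The groups overlapped through circ_0005358 replicate 3 (exact permutation p = 0.3; limma with no filter, adjusted p = 0.638).

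The other 10 S100 symbols listed for the family, S100A1, S100A5, S100A7, S100A7A, S100A8, S100A9, S100A12, S100B, S100G and S100Z, stayed below the filter. S100A9, which pairs with S100A8 in neutrophils and stressed keratinocytes, was the highest of these in mean level, with 0.563, 0.317 and 0.305 FPKM in circ_0005358 libraries and 0.611, 0.941 and 0.856 FPKM in vector libraries. Its groups did not overlap (limma with no filter, adjusted p = 0.34). Of all tested loci 15.9% were lower without overlap, but those loci passed the filter and S100A9 did not. S100A8 reached 0.0443 FPKM at most in circ_0005358 libraries and 0.0969 FPKM in vector libraries. S100A5, known from the olfactory neurons of rodents, stood at 0.306 to 0.334 FPKM with circ_0005358 and at 0.169, 0.252 and 0.816 FPKM with vector. S100A7 and S100A12 were listed above 0 in vector replicate 3 alone, the library with the most loci above 0, and S100B was at most 0.0406 FPKM, also there.

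**Figure D3:**
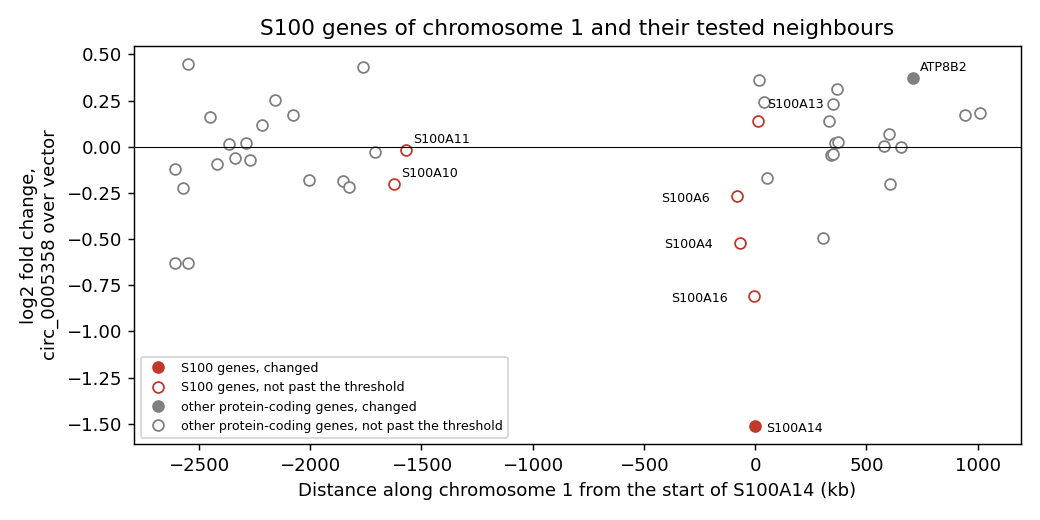
Log2 fold change of circ_0005358 over vector for the 7 tested S100 genes of chromosome 1 (red) and 37 other tested protein-coding genes within 1 Mb of an S100 member there (grey), against the distance from the start of S100A14 in kb. Filled points passed the test: S100A14 at -1.51 and ATP8B2 at 0.37.

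No tested neighbour of the chromosome 1 members passed the test on the lower side, where S100A14 did. Of the 37 tested protein-coding neighbours within 1 Mb of a member on chromosome 1, 1 rose and 0 fell (limma, adjusted p under 0.05), which is 2.70% where 11.4% of all tested loci changed. The neighbours include genes around S100A10 and S100A11, which lie at -1623 and -1569 kb from the start of S100A14. Closest to the threshold without passing were C1orf43, lower without overlap (limma, adjusted p = 0.0523), and CHTOP, higher without overlap (limma, adjusted p = 0.0645). Over the alternatives 0 to 2 neighbours were called. At an unadjusted p under 0.05, 3 of the 37 were higher and 3 lower. Their median log2 fold change was 0.02, as over all tested loci to 2 decimals. The neighbour that rose was ATP8B2, which encodes a phospholipid flippase. It had 3.17, 3.22 and 3.41 FPKM in circ_0005358 libraries, against 2.22, 2.26 and 2.39 FPKM in vector libraries (log2 fold change 0.37; limma, adjusted p = 0.0175). The groups stood apart, but the call was lost without circ_0005358 replicate 3, vector replicate 1 or vector replicate 2, with adjusted p from 0.0137 to 0.0986 over all alternatives. None of 10 cornified envelope genes listed from the stretch between S100A11 and the main cluster reached the filter. FLG, which encodes filaggrin, was the highest, at 0.104 to 0.132 FPKM with circ_0005358 and 0.0853 to 0.769 FPKM with vector, and SPRR1A had no row.

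Genes of proteins known to bind S100 proteins changed in both directions. Of 26 listed partners 19 were tested, and 3 rose, 1 fell and 15 did not pass the test, where 6.41% of all tested loci rose and 4.96% fell. Their median log2 fold change was 0.02, as over all tested loci to 2 decimals. The 3 that rose were annexins, the calcium-dependent membrane binders. ANXA6 had 7.81, 7.93 and 7.84 FPKM in circ_0005358 libraries, against 3.73, 3.63 and 3.99 FPKM in vector libraries. The groups were far apart, 0.89 on the log2 scale (limma, adjusted p = 0.0011), and the call held in all 17 alternatives. ANXA2, the partner of S100A10, had 97.2, 85.2 and 98.4 FPKM in circ_0005358 libraries, against 73.7, 75.4 and 75.9 FPKM in vector libraries (log2 fold change 0.31; limma, adjusted p = 0.0467). ANXA2 did not show the split of levels seen in S100A10, and its call was lost on leaving out any library but circ_0005358 replicate 2, with adjusted p from 0.019 to 0.153 over all alternatives. ANXA11, a partner of S100A6, rose to 14.7 FPKM with circ_0005358, against 11.1 FPKM with vector (log2 fold change 0.38; limma, adjusted p = 0.0208). That call was lost without circ_0005358 replicates 2 or 3 or vector replicates 2 or 3, with adjusted p from 0.0167 to 0.144 over all alternatives. The most abundant annexin of the list, ANXA5, had means of 181 FPKM with circ_0005358 and 183 FPKM with vector (limma, adjusted p = 0.821).

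Scaffold, chaperone and cytoskeletal partners gave 0 calls among 11 tested, where 11.4% of all tested loci changed (limma, adjusted p under 0.05). At an unadjusted p under 0.05, 3 of them were lower and 0 higher. MYH9, the non-muscle myosin heavy chain bound by S100A4, had 113, 149 and 123 FPKM in circ_0005358 libraries, against 156, 161 and 166 FPKM in vector libraries (log2 fold change -0.34; limma, adjusted p = 0.114). The groups did not overlap for MYH9. Of the 11 tested genes, 4 were lower without overlap and 1 was higher, where 15.9% and 19.8% of all tested loci lay so. EZR, the ezrin gene and a partner of S100P, was singled out after its values were seen, with 52.2, 56.3 and 54.3 FPKM in circ_0005358 libraries and 70.1, 122 and 77.5 FPKM in vector libraries (limma, adjusted p = 0.109). In another group of the partner list, MDM2, a ubiquitin ligase, fell to 9.37 FPKM with circ_0005358, against 13.2 FPKM with vector (log2 fold change -0.45, limma adjusted p = 0.012). The MDM2 call was lost without vector replicate 2 (limma, adjusted p = 0.0538, with 0.00925 to 0.0881 over all alternatives).

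Receptors and cargo of the extracellular S100 pathway were mostly below the filter. BSG, the gene of basigin, a receptor for S100A9, was the exception, with means of 139.6 FPKM with circ_0005358 and 133.9 FPKM with vector (limma, adjusted p = 0.54). AGER, the receptor for advanced glycation end products, stood at 0.283 to 0.323 FPKM with circ_0005358 and at 0.179 to 0.633 FPKM with vector. TLR4, another receptor of S100A8 and S100A9, had 0.328, 0.324 and 0.847 FPKM in circ_0005358 libraries, against 0.116, 0.0681 and 0.119 FPKM in vector libraries. CD36, a scavenger receptor, had 0.679, 0.600 and 0.841 FPKM in circ_0005358 libraries, against 0.175, 0.207 and 0.196 FPKM in vector libraries. TLR4 and CD36 were higher in every circ_0005358 library than in any vector library at levels under 1 FPKM, where 19.8% of all tested loci lay that way. Neither passed the test when no filter was applied (limma, adjusted p = 0.348 for TLR4 and 0.0836 for CD36). The 3 receptors below the filter were named after their values were seen. IL1A, the cargo that S100A13 helps to export, lay the other way at 0.183 to 0.399 FPKM with circ_0005358 and 0.442 to 0.996 FPKM with vector (limma with no filter, adjusted p = 0.402).

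**Figure D4:**
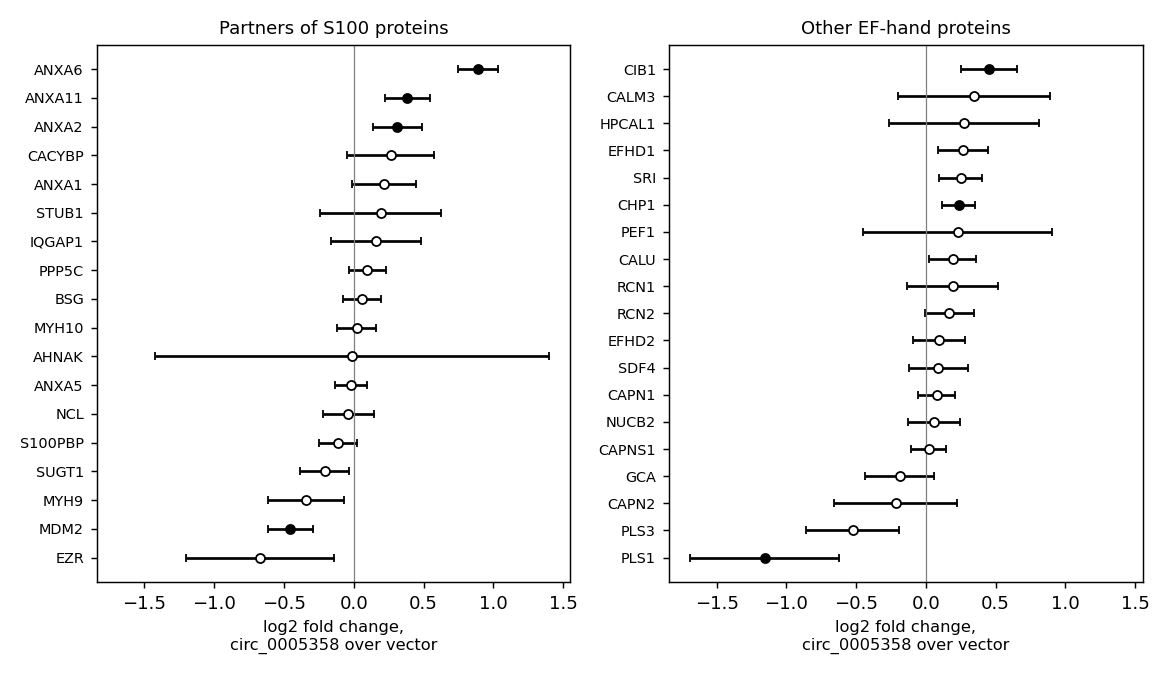
Log2 fold change of circ_0005358 over vector with 95% limma intervals for tested partners of S100 proteins (left) and tested genes of other EF-hand proteins (right), with 1 gene of each list not shown. Filled points passed the test: ANXA6, ANXA11, ANXA2 and MDM2 on the left, and CIB1, CHP1 and PLS1 on the right.

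Calcium-binding proteins with EF-hands outside the S100 family changed in 3 of 20 tested cases, of 26 listed, a share near the 11.4% of all tested loci. Of the rest, 3 stayed below the filter and 3 sat on rows joined with other genes and were not counted. The row of S100A13, joined with noncoding names only, was counted among the members. CIB1, a binder of integrin tails, rose to 36.5 ± 3.49 FPKM with circ_0005358, against 26.3 ± 0.674 FPKM with vector (SD, n = 3 each; log2 fold change 0.45; limma, adjusted p = 0.025). CHP1, a cofactor of sodium-proton exchangers, rose to 88.8 ± 2.33 FPKM with circ_0005358, against 75.3 ± 1.82 FPKM with vector (SD, n = 3 each; log2 fold change 0.23; limma, adjusted p = 0.035). PLS1, an actin bundler of microvilli, fell to 3.49 ± 0.249 FPKM with circ_0005358, against 9.25 ± 2.67 FPKM with vector (SD, n = 3 each; log2 fold change -1.16; limma, adjusted p = 0.0277). Each of these calls was lost on leaving out single libraries, CHP1 in all 6 cases, PLS1 in all but vector replicate 3 and CIB1 in all but circ_0005358 replicates 1 and 2. Over all alternatives the adjusted p ran from 0.0313 to 0.153 for CHP1, from 0.0041 to 0.0911 for PLS1 and from 0.0176 to 0.114 for CIB1. The median log2 fold change of the 20 genes was 0.13, against 0.02 over all tested loci. The most abundant penta-EF-hand, secretory-pathway and other cytosolic genes did not pass the test. The calpain subunit gene CAPNS1 had means of 54.9 FPKM with circ_0005358 and 54.2 FPKM with vector (limma, adjusted p = 0.843), and the secretory-pathway gene CALU 60.4 FPKM with circ_0005358 and 52.6 FPKM with vector (limma, adjusted p = 0.14). PLS3, a relative of PLS1, had 135, 121 and 95.1 FPKM in circ_0005358 libraries, against 172, 166 and 163 FPKM in vector libraries, without overlap (limma, adjusted p = 0.0665).

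Over the 6 libraries the genes whose log2 levels followed S100A14 most closely were STK26, JMY, UACA, FER and TTLL7, with Pearson correlations of 0.994 to 0.996. These are a kinase, an actin nucleator, an apoptosis regulator, a tyrosine kinase and a tubulin-modifying enzyme. Each fell with S100A14, so the correlations include the difference between the groups, and the 6 libraries are shared by all genes. STK26, picked for this likeness, had 12.1, 11.8 and 11.3 FPKM in circ_0005358 libraries, against 16.6, 17.7 and 16.4 FPKM in vector libraries.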

How the data were processed

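The authors deposited FPKM values for 35544 loci in 6 libraries. Trimmomatic, HISAT2 and hg19 are named in the submitters' processing notes. Versions, strand use, the annotation and the program behind the FPKM values were not given in the sources used here. Members were matched by symbol, and a symbol on several rows kept the row with the highest mean. Positions are from GENCODE 29 on GRCh38, not from the alignment's build. A locus was tested if at least 3 libraries had 1 FPKM or more. Two-sided tests were run in limma 3.58.1 (R 4.3.3) on log2(FPKM + 1) with eBayes and its trend option; p-values were adjusted by Benjamini-Hochberg over all 10295 tested loci, with a threshold of 0.05. The procedure was tested on simulated data. Exact permutation tests compared the 3 against 3 values of single genes.

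Depth was estimated from the commonest value of FPKM times length on loci with 1 transcript of known length; no counts were recovered. The members and lists were chosen with earlier results of these data known. Named are the members, other S100 symbols, list genes and neighbours that changed, the most abundant gene of each list group, and the 5 genes most like the member with the smallest p. Of these, 2 list genes are not reported here, though the list counts include them. Alternatives changed the pseudocount, filter, scaling, variance model, weights, replicate block and libraries; leaving a library out kept the same tested loci.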

Additional observations from a re-analysis of the deposited data

How the results depend on the processing

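S100A14 kept its direction in all 16 alternatives that tested it, from -2.94 to -1.37, and its call in 15, the exception being the removal of both vector replicate 3 and circ_0005358 replicate 2 (-1.62, adjusted p = 0.0543); with FPKM of at least 5 in 3 libraries it was not tested and limma called 0 members, with 2 at an unadjusted p under 0.05. S100A6 was called at -0.30 after rescaling to the same sum and at -0.27 with library weights, so 2 members were called there, and 0 without both libraries (3 at an unadjusted p under 0.05). Leaving out single libraries gave -0.093 to 0.092 for S100A11 and -0.107 to 0.252 for S100P, with signs that differed, and 1 member called each time, while S100P was at 0.275 without both libraries. S100A2 and S100A3 had a value in no alternative but the one with no filter. Over all loci the calls numbered 1171, against 591 with no filter, 378 without both libraries and 582 to 802 without single libraries. Partner calls numbered 4, against 2 with no filter, 1 without both libraries and 1 to 4 without single libraries, and other EF-hand calls 3, against 0, 1 and 0 to 1 in the same order. The replicate block left 259 calls over all loci, 1 partner (ANXA6) and 0 other EF-hand genes (7 at an unadjusted p under 0.05), with S100A14 still called. Same-numbered libraries deviated together only weakly (correlations of 0.0481 to 0.0781, against -0.0537 to -0.0106 for others), so the numbers were not taken as pairs, although every library correlated best with its own number. Low values such as those of S100A14 with circ_0005358 are limited by depth.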

Other observations

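AHNAK, the giant scaffold that joins S100A10 and annexin A2 at the membrane, followed the replicate number and not the plasmid; it was singled out after its values were seen. It had 42.5, 23.3 and 78.4 FPKM in circ_0005358 replicates 1 to 3, against 43.2, 25.01 and 74.2 FPKM in vector replicates 1 to 3. Each level came back in the library of the same number in the other group. The pattern was not that of S100A10, which in circ_0005358 replicate 2 stood at 97.7 FPKM and in vector replicate 2 at 43.2 FPKM.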
